A study of Caenorhabditis elegans with 9 samples.

Results

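Genes of the Argonaute family were described in whole Caenorhabditis elegans of 3 strains. The members are csr-1, prg-1, wago-1, wago-4, hrde-1, alg-1, alg-2, alg-3, alg-4 and rde-1, chosen by public gene name, and all 10 were found among the 28749 genes of the deposited table. Poly(A) RNA of whole animals was sequenced in 3 libraries for each strain. N2 is the Bristol wild type and carries no transgene. WLZ1 carries the integrated array wlzIs1, in which the worm snb-1 promoter drives wild-type human LRRK2 in all neurons, with lin15(+) as its marker. WLZ3 carries wlzIs3, with the same promoter and marker and the G2019S form of LRRK2, a Parkinson's disease form with raised kinase activity. All animals were kept at 20 °C on Escherichia coli OP50, and the labels name no age, stage or sex. Each transgenic strain is 1 named integrant, so the form of LRRK2 and the integrant cannot be told apart. N2 has no array, so against N2 LRRK2 cannot be told apart from the lin15(+) marker or the insertion.

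Argonautes are proteins that hold a small RNA and use it to find a matching transcript. In the worm germ line, PRG-1 is the Piwi protein that carries piRNAs and marks foreign transcripts. The WAGO proteins, among them WAGO-1, WAGO-4 and the nuclear HRDE-1, then carry secondary small RNAs that silence those transcripts and pass the silencing to later generations. CSR-1 carries small RNAs against transcripts that the germ line does express and protects them. ALG-3 and ALG-4 act while sperm are made. ALG-1 and ALG-2 carry microRNAs, mainly in the soma, and RDE-1 carries the first small interfering RNAs cut from double-stranded RNA during RNA interference.

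Values are FPKM, which set the reads of a gene against its length and the library's total, so levels of different genes can be compared. Whole reads were recovered from the values, and library totals lay between 38128735 and 53336537 reads. The marker gene of the arrays, lin-15B, had its lowest values in N2 (16.8 to 17.9 FPKM), its highest in WLZ1 (76.9 to 87.9) and lay between them in WLZ3 (37.8 to 42.8), so both strains labelled lin15(+) were above the one that is not. lin-15A kept this order, at 16.1 to 17.6 FPKM in N2, 70.3 to 76.8 in WLZ1 and 22.4 to 23.1 in WLZ3, nearer to N2 there than lin-15B. Many genes differed between these strains. Of 14862 genes tested, 67.6% were called in WLZ1 against N2, 36.0% in WLZ3 against N2 and 42.1% in WLZ3 against WLZ1. Tissue markers moved too. The summed level of 10 neuronal genes was 147 to 187 FPKM in the wild type, 66.2 to 72.4 FPKM in WLZ1 and 95.7 to 107 FPKM in WLZ3. The summed level of 11 germ line genes was 1327 to 1474, 1798 to 1887 and 1609 to 1661 FPKM, in the same order of strains. In RNA of whole animals, fewer cells of a type and less RNA per cell cannot be told apart.

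Levels spanned a wide range within the family. In N2 the order of mean levels was wago-1 (202 ± 13.5 FPKM, mean ± SD, n = 3 here and throughout), hrde-1 (147 ± 8.11), csr-1 (80.6 ± 5.06), prg-1 (64.9 ± 3.59), rde-1 (36.1 ± 0.89), wago-4 (33.4 ± 1.77), alg-1 (27.1 ± 3.31), alg-2 (24.1 ± 1.31), alg-4 (0.135 ± 0.172) and alg-3 (0.104 ± 0.0944). Every N2 library of a gene lay above every library of the next gene in this order, except for rde-1 over wago-4, alg-1 over alg-2 and alg-4 over alg-3, whose libraries overlapped. The first 4 genes kept their places in WLZ1 and WLZ3. In deposited FPKM alg-1 stood below alg-2 in every library of both transgenic strains. The order within this pair may depend on gene length. The values of alg-1 came from a length of 4626 bases, where its annotated exons hold 6696. The same reads set against 6696 bases would give 18.7 ± 2.29 FPKM in N2, below every alg-2 library there too. Reads in the bases left out are not known, so the order on annotated exons is not settled. By mean level over all libraries, wago-1 lay at the 96.8th percentile of the genes tested and hrde-1 at the 95th, while alg-3 and alg-4 lay at the 0.801st and 0.478th.

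**Figure D1:**
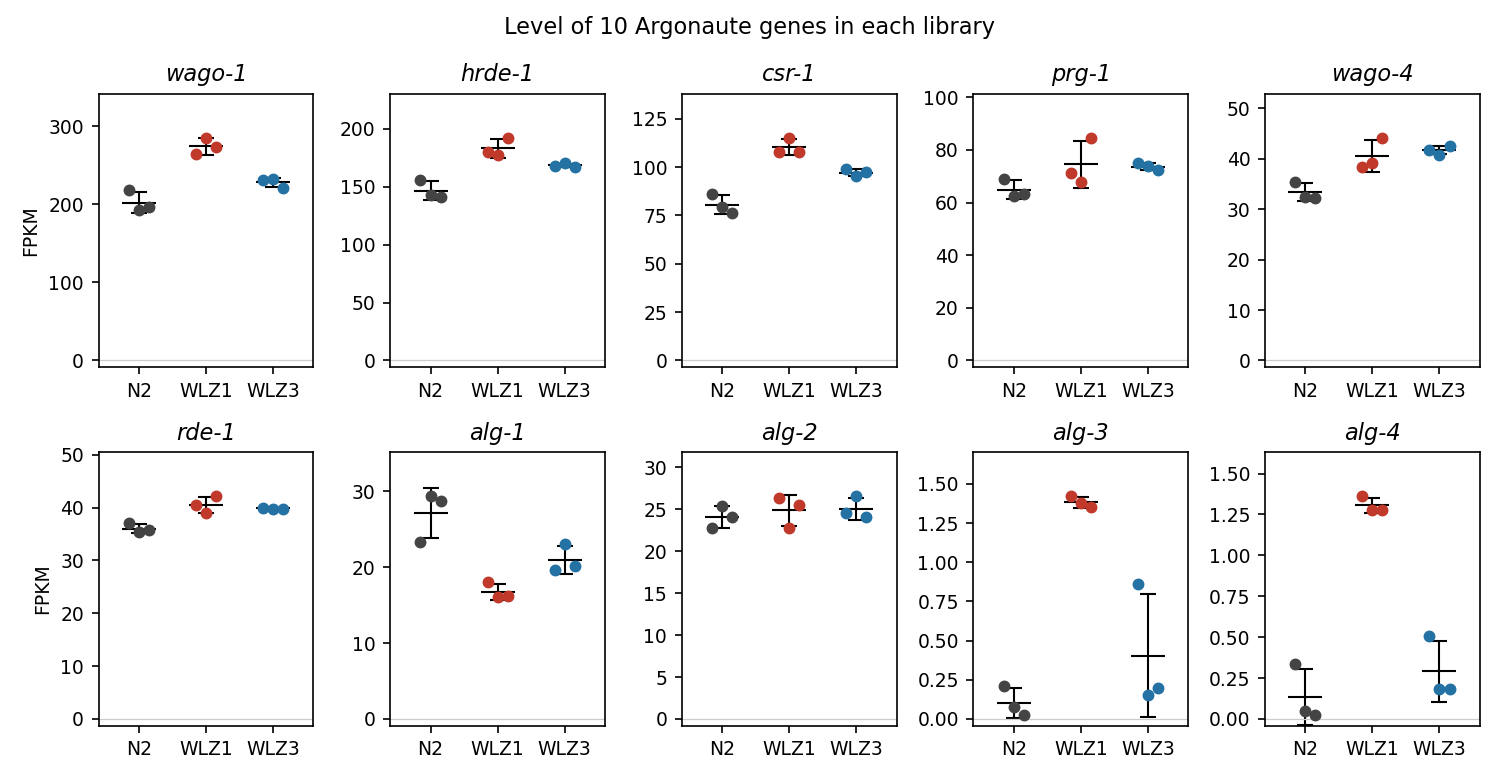
FPKM of the 10 Argonaute genes in each library of N2, WLZ1 and WLZ3, with dots for libraries and black bars for the mean and SD of 3 libraries. The dots of csr-1, wago-1, hrde-1, wago-4 and rde-1 lie higher in both transgenic strains than in N2, those of alg-1 lie lower, and those of alg-3 and alg-4 are highest in WLZ1.

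The first comparison asked how WLZ1, with wild-type LRRK2 in its neurons and the lin15(+) marker, differs from N2. In WLZ1 the germ line Argonautes csr-1, wago-1, hrde-1 and wago-4 were 1.21 to 1.37 times their N2 level, the microRNA Argonaute alg-1 was 0.619 times its N2 level, and alg-2 differed by less than the spread between libraries. Of the 8 members with at least 1 FPKM in all 9 libraries, 5 rose, 1 fell and 2 were not called (limma on log2(FPKM + 1), Benjamini-Hochberg adjusted p under 0.05). Among all genes tested 26.6% rose and 41.1% fell. The median log2 change of the 8 members was 0.23, beside -0.13 over all genes. The libraries of the groups did not overlap for 6 of the 8, beside 70.8% of all genes.

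csr-1 (IV 7957267 to 7962157, build WBcel235) stood at 86.1, 79.5 and 76.1 FPKM in N2 and at 108, 115 and 108 in WLZ1. Every WLZ1 library was above every N2 library, and the log2 change was 0.45 (SE 0.051, limma adjusted p = 6.63e-05). csr-1 shares 438 exonic bases with F57H12.4 on the same strand, so the reads of that stretch are uncertain. wago-1 (I 7235384 to 7238792), which acts in P granules, the germ granules beside the nuclei, gave 218, 193 and 196 FPKM in N2 and 264, 285 and 274 in WLZ1. Its groups did not overlap either, with a log2 change of 0.44 (SE 0.054, limma adjusted p = 0.000118). The nuclear Argonaute hrde-1 (III 4172337 to 4176159), which carries inherited silencing to chromatin, gave 156, 143 and 141 FPKM in N2 and 180, 177 and 192 in WLZ1 (log2 change 0.31, SE 0.049, limma adjusted p = 0.000455). wago-4 (II 12919551 to 12923377), a cytoplasmic Argonaute of inherited RNA interference, gave 35.4, 32.5 and 32.2 FPKM in N2 and 38.4, 39.1 and 44.1 in WLZ1. It rose by 0.27 on the log2 scale (SE 0.062, limma adjusted p = 0.00392), with WLZ1 replicate 3 the highest.

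The Piwi gene prg-1 (I 7585329 to 7588367) stood at 69.0, 62.3 and 63.3 FPKM in N2 and at 71.3, 67.7 and 84.5 in WLZ1. The groups overlapped, since N2 replicate 1 was above WLZ1 replicate 2. Its log2 change of 0.19 (95% interval 0.02 to 0.37) was not called (limma adjusted p = 0.0521). Over 17 alternative settings that p ran from 0.00135 to 0.209, and the gene was called after median-of-ratios scaling (adjusted p = 0.00135), without N2 replicate 1 (0.036) and without WLZ1 replicate 2 (0.017).

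rde-1 (V 9987916 to 9991642), the entry point of RNA interference by double-stranded RNA, gave 37.0, 35.3 and 35.8 FPKM in N2 and 40.4, 39.0 and 42.1 in WLZ1. The groups did not overlap, and the rise was small (log2 change 0.16, SE 0.043, limma adjusted p = 0.00793).

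alg-1 and alg-2 were not alike in WLZ1. alg-1 (X 13949489 to 13956261) stood at 23.3, 29.3 and 28.7 FPKM in N2 and at 18.0, 16.1 and 16.2 in WLZ1, so every WLZ1 library was below every N2 library. Its log2 change was -0.66 (SE 0.098, limma adjusted p = 0.000348). Some summed somatic markers were lower in WLZ1 as well. Body wall muscle stood at 665 to 810 FPKM beside 1332 to 1558 in N2. Epidermis stood at 258 to 286 beside 629 to 752, and pharynx at 33.6 to 45.5 beside 164 to 238. Of these lists 8 of 8, 4 of 8 and 6 of 6 genes fell. Intestine sums overlapped, at 2007 to 2580 beside 2387 to 2738 FPKM, and 4 of 7 genes fell. Among all genes tested 41.1% fell. The part of these tissues in the fall of alg-1 was not tested.

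alg-2 (II 873212 to 879885) stood at 22.8, 25.4 and 24 FPKM in N2 and at 26.3, 22.7 and 25.5 in WLZ1. These ranges overlapped, and the log2 change of 0.04 had a 95% interval of -0.11 to 0.20 (limma adjusted p = 0.607). Median-of-ratios scaling and quantile normalization did call alg-2, with log2 changes of 0.23 and 0.19 (adjusted p = 0.0075 and 0.0275, within a range of 0.0075 to 0.99 over 17 settings). The ratio of alg-1 to alg-2 within a library is not moved by a scaling factor for the whole library, though quantile normalization can move it. In deposited FPKM it was 1.02, 1.15 and 1.2 in N2, 0.685, 0.71 and 0.637 in WLZ1 and 0.799, 0.873 and 0.838 in WLZ3. The 3 groups did not overlap in this ratio. For the same reads, the length used for alg-1 sets the size of this ratio and not its order between strains. ALG-1 and ALG-2 are close copies in sequence, and no source used here says how reads that match several genes were counted, so the split of reads within the pair is uncertain.

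The direction of the 5 rises and of the fall of alg-1 held with both scaling alternatives, although these moved the median change of all genes from -0.13 to 0.03 and 0.07. Relative to the median of all genes, the deposited values gave log2 changes of 0.58 for csr-1, 0.57 for wago-1, 0.44 for hrde-1, 0.40 for wago-4, 0.29 for rde-1 and -0.53 for alg-1. These 6 calls remained in all 17 settings. N2 replicate 1 stood nearest to the transgenic strains: among N2 libraries it was highest for csr-1, prg-1, wago-1, wago-4, hrde-1, rde-1, alg-3 and alg-4 and lowest for alg-1. The same library had the highest sums of germ line genes (1474 FPKM beside 1327 and 1349) and sperm genes (18.7 beside 8.71 and 4.53) and the lowest of neuronal genes (147 beside 187 and 180).

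**Figure D2:**
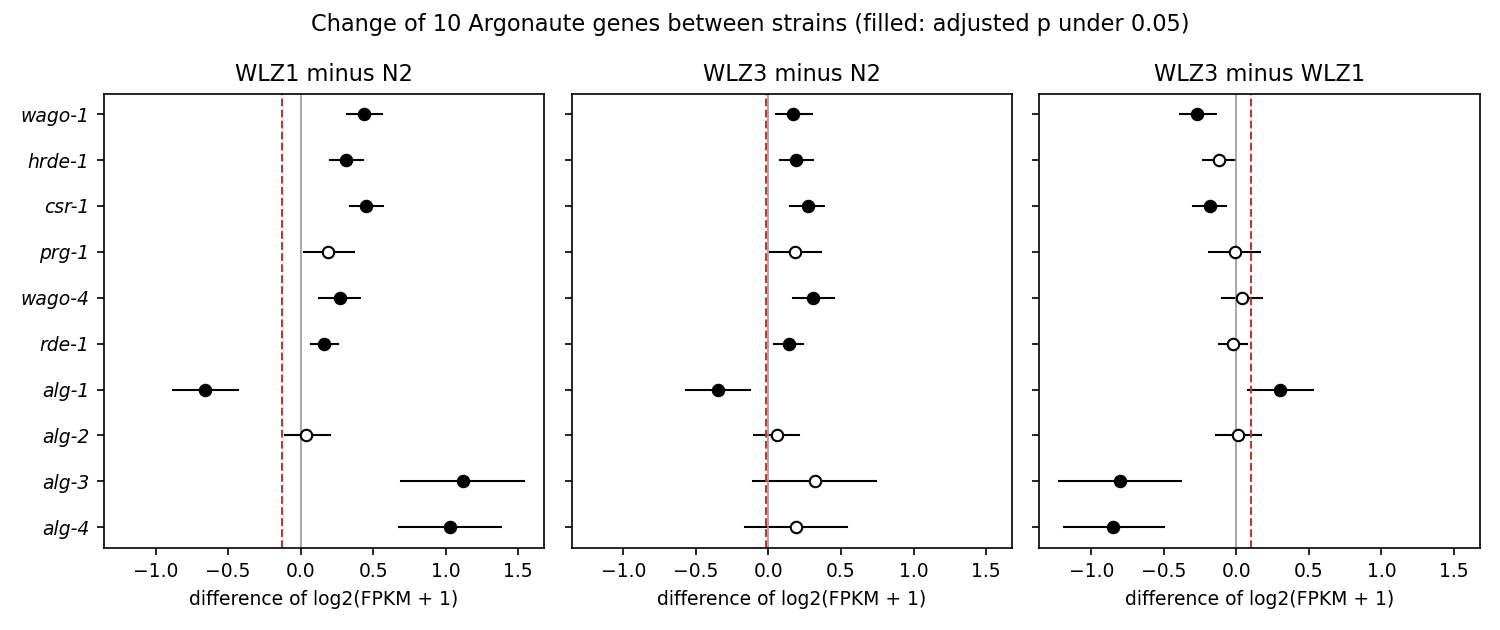
Difference of log2(FPKM + 1) for each Argonaute gene in the 3 comparisons, with 95% intervals as lines, filled dots for an adjusted p under 0.05, and a dashed line at the median of all genes tested. In WLZ1 against N2 csr-1 lies at 0.45, alg-2 at 0.04 and alg-1 at -0.66.

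Germ line genes as a group were also higher in WLZ1, so the members were set beside them. All 11 germ line markers rose in WLZ1 against N2, with a median log2 change of 0.40 (from 0.28 to 0.48). The level of csr-1 per geometric mean of these 11 genes was 0.94 ± 0.0349 in N2, 0.984 ± 0.0273 in WLZ1 and 0.984 ± 0.0125 in WLZ3. For wago-1 the ratios were 2.36 ± 0.0544, 2.44 ± 0.04 and 2.31 ± 0.054. For hrde-1 they were 1.71 ± 0.0378, 1.63 ± 0.0767 and 1.70 ± 0.0248. The libraries of N2 and WLZ1 overlapped in these ratios for csr-1, wago-1 and hrde-1. Those of rde-1 did not: they ran from 0.412 to 0.428 in N2, from 0.34 to 0.372 in WLZ1 and from 0.4 to 0.405 in WLZ3. prg-1 ran from 0.749 to 0.767 in N2, from 0.591 to 0.744 in WLZ1 and from 0.737 to 0.75 in WLZ3. wago-4 gave 0.39 ± 0.00761 in N2, 0.361 ± 0.0246 in WLZ1 and 0.423 ± 0.00963 in WLZ3, with every WLZ3 library above every N2 and WLZ1 library. For alg-1 the ratio went from 0.318 ± 0.0516 in N2 to 0.15 ± 0.0138 in WLZ1 and 0.213 ± 0.0204 in WLZ3. That of alg-2 ran from 0.253 to 0.308 in N2, from 0.198 to 0.242 in WLZ1 and from 0.246 to 0.27 in WLZ3, so its WLZ1 libraries were lowest too. These ratios are descriptions with no test, and the part of germ line content in the rises was not tested.

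**Figure D3:**
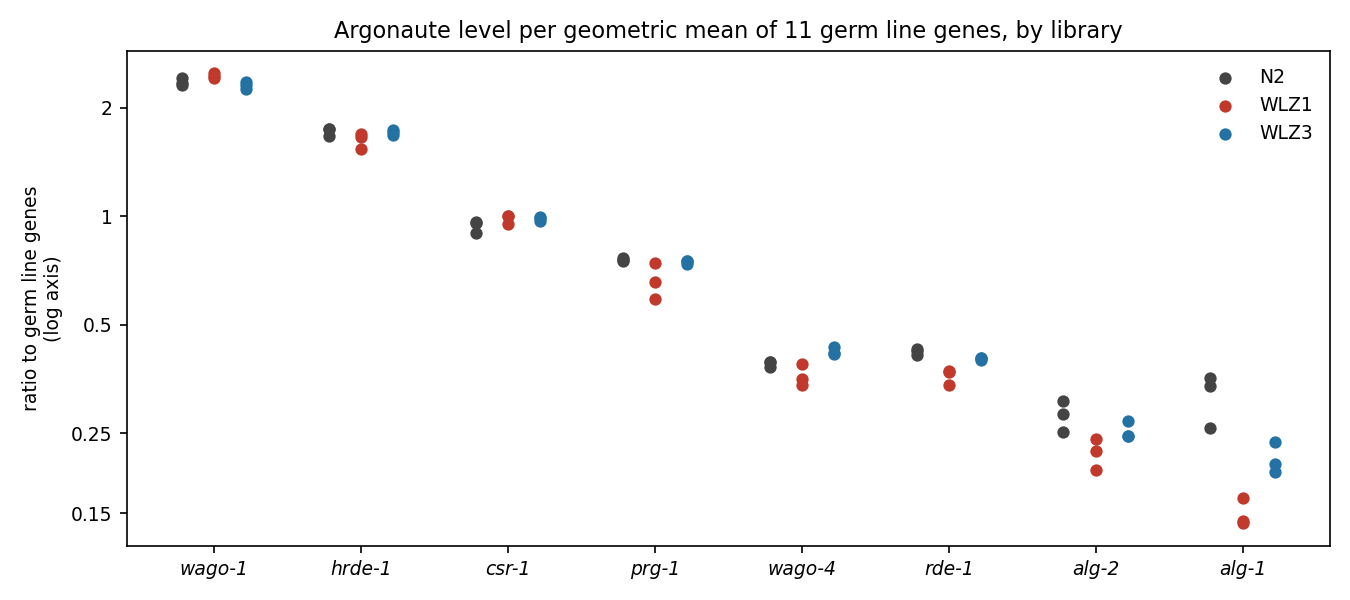
FPKM of 8 Argonaute genes divided by the geometric mean of 11 germ line genes in the same library, on a log axis, with a dot for each library. The 3 strains lie close together for csr-1 (0.9 to 1), while alg-1 is lowest in WLZ1 (0.141 to 0.166).

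The sperm Argonautes alg-3 and alg-4 were near 0 in N2 and present in WLZ1. alg-3 (IV 11704246 to 11708264) had 26, 12 and 4 reads in N2, which is 0.208, 0.078 and 0.0248 FPKM, and 248, 227 and 236 reads in WLZ1, which is 1.42, 1.38 and 1.35 FPKM. alg-4 (III 9887210 to 9891424) had 44, 8 and 4 reads in N2 (0.334, 0.0492 and 0.0234 FPKM) and 251, 222 and 235 in WLZ1 (1.36, 1.28 and 1.28 FPKM). All WLZ1 libraries were above all N2 libraries for both genes. The floor taken for a gene, 3 fragments or 6 reads in a library, lay at 0.0372 FPKM for alg-3 and 0.0352 for alg-4 in N2 replicate 3, and both genes were under it there. The ratio of mean levels was 13.4 for alg-3 and 9.64 for alg-4. It rested on N2 replicate 1, without which it was 27 for alg-3 and 35.9 for alg-4.

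Both genes passed the filter of 1 FPKM in 3 libraries only through the 3 WLZ1 libraries, so they had to differ from the other strains, and their calls in that fit support nothing. With no filter, on 26089 genes, alg-3 rose by 1.12 and alg-4 by 1.03 on the log2(FPKM + 1) scale (limma adjusted p = 0.00114 and 0.000447). That scale compresses changes of genes near 0. The ratio of alg-3 to alg-4 was 1.04 to 1.08 in WLZ1, so the pair stood at nearly equal levels there. These genes too are close copies, so their reads may be partly exchanged.

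In WLZ3 the sperm Argonautes depended on 1 library. alg-3 had 130, 23 and 33 reads (0.861, 0.156 and 0.198 FPKM) and alg-4 had 81, 29 and 32 (0.507, 0.186 and 0.181 FPKM). WLZ3 replicate 1 was high for both, and replicates 2 and 3 lay within the range of the N2 libraries. Against N2 the log2 changes were 0.32 for alg-3 and 0.19 for alg-4, not called (limma adjusted p = 0.207 and 0.36), and without WLZ3 replicate 1 neither was called. With no filter, WLZ3 was lower than WLZ1 by -0.80 for alg-3 and -0.85 for alg-4 (limma adjusted p = 0.0143 and 0.00375).

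The summed level of 12 sperm genes, among them 4 nearly identical genes for the protein that moves worm sperm (MSP), was 18.7, 8.71 and 4.53 FPKM in the N2 libraries, 244, 190 and 222 in those of WLZ1 and 150, 19.4 and 51.2 in those of WLZ3. The library of WLZ3 with the most alg-3 and alg-4 also had the highest sum of sperm genes, and the same held in N2. The order was not the same throughout: WLZ3 replicate 3 had more sperm gene FPKM than replicate 2 and less alg-4 (0.181 beside 0.186), and N2 replicate 1 had more alg-3 plus alg-4 (0.542) than WLZ3 replicate 3 (0.379). alg-3 and alg-4 together came to 12.4 ± 1.38 FPKM for each 1000 FPKM of sperm genes in WLZ1, 18.1 ± 9.63 in N2 and 11.4 ± 5.51 in WLZ3. In N2 replicate 2, 1 of the 12 sperm genes was listed at 0, and in N2 replicate 3, 2 were.

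**Figure D4:**
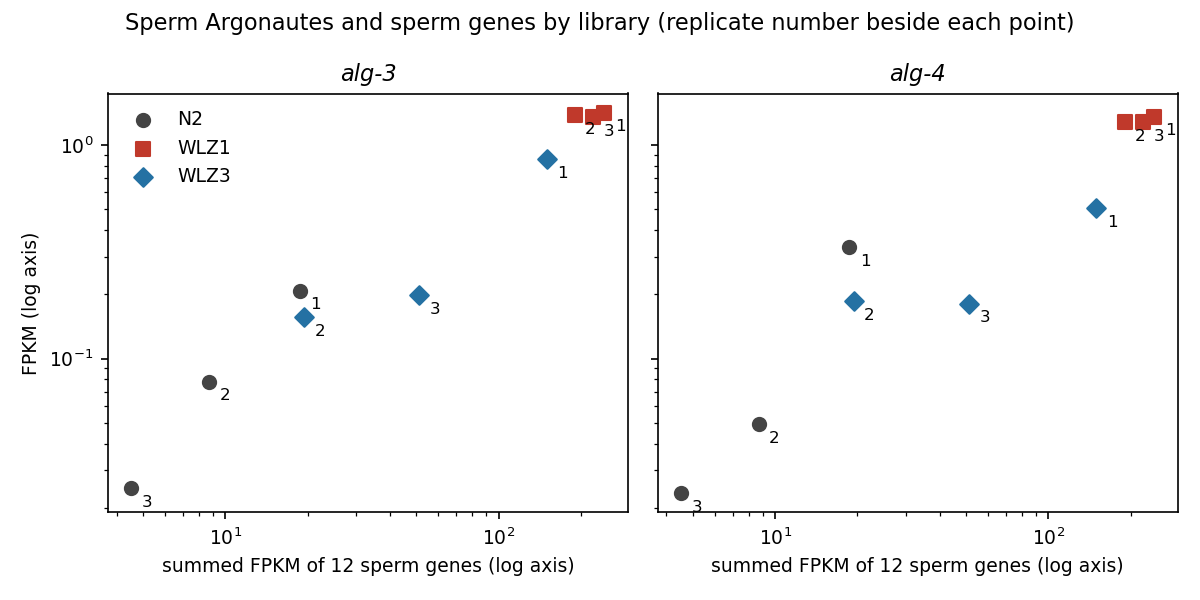
FPKM of alg-3 and alg-4 against the summed FPKM of 12 sperm genes in each library, both on log axes, with the replicate number beside each point. The 3 WLZ1 libraries lie together at the top right, WLZ3 replicate 1 (0.861 FPKM of alg-3 and 150 of sperm genes) lies apart from the other WLZ3 libraries, and N2 replicate 3 is lowest.

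The second comparison set WLZ3, with LRRK2 G2019S, against N2, and it shares its N2 libraries with the first. Of the 8 members at 1 FPKM in all libraries, 5 rose, 1 fell and 2 were not called, where 13.3% of all genes rose and 22.7% fell. Their median log2 change was 0.17, beside -0.02 over all genes. The groups did not overlap for 7 of the 8, beside 51.9% of all genes.

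wago-4 gave 41.8, 40.8 and 42.5 FPKM in WLZ3, all above the N2 libraries, with a log2 change of 0.31 (SE 0.062, limma adjusted p = 0.00648). csr-1 gave 98.9, 95.2 and 97.3 FPKM, between the ranges of N2 and WLZ1 (log2 change 0.27 against N2, SE 0.051, limma adjusted p = 0.00533). The calls of csr-1 and wago-4 remained in all 17 settings. hrde-1 gave 168, 170 and 167 FPKM (log2 change 0.19, limma adjusted p = 0.0162), wago-1 gave 231, 232 and 221 (0.17, adjusted p = 0.035) and rde-1 gave 40, 39.7 and 39.8 (0.14, adjusted p = 0.0319). alg-1 gave 19.6, 23.1 and 20.2 FPKM, below every N2 library, though by little for WLZ3 replicate 2 against N2 replicate 1 (log2 change -0.35, SE 0.098, limma adjusted p = 0.0229). These 4 calls were each lost in some settings, with adjusted p up to 0.0604 for hrde-1, 0.119 for wago-1, 0.0998 for rde-1 and 0.0834 for alg-1.

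The count of called genes among the 8 was 6 in WLZ3 against N2. It was 2 without N2 replicate 2 or without N2 replicate 3, 3 without WLZ3 replicate 1 or 2, and 4 without WLZ3 replicate 3, with quantile normalization or with a replicate block. Calls over all genes tested went down too, from 5354 to 3151 and 3380 without N2 replicate 2 or 3. They were 3684, 3716 and 4216 without WLZ3 replicates 1, 2 and 3, 4609 with quantile normalization and 4410 with a replicate block. Fits without 1 library have fewer libraries to estimate the spread from, but the count among the 8 also depended on which library was left out. It was 6 without N2 replicate 1 or WLZ1 replicate 2, 5 without WLZ1 replicate 1 and 7 without WLZ1 replicate 3. prg-1 gave 74.9, 73.7 and 72.3 FPKM in WLZ3, above every N2 library, and was not called (log2 change 0.18, 95% interval 0.01 to 0.36, limma adjusted p = 0.0954). It was called after median-of-ratios scaling (adjusted p = 0.0343), with only these groups in the fit (0.0301) and without WLZ1 replicate 3 (0.0233), in a range of 0.0233 to 0.235 over 17 settings. alg-2 gave 24.5, 26.5 and 24.1 FPKM, within 0.06 of N2 on the log2 scale (95% interval -0.10 to 0.21).

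The third comparison set the G2019S strain against the strain with wild-type LRRK2. Of the 8 members, csr-1 and wago-1 were lower in WLZ3, alg-1 was higher and 5 were not called, where 12.6% of all genes were lower and 29.6% higher. The groups did not overlap for 4 of the 8, beside 55.7% of all genes. The median log2 difference was -0.01 over the 8 and 0.10 over all genes, and the latter became -0.02 with either scaling alternative. Relative to the median of all genes, the deposited values gave -0.36 for wago-1, -0.28 for csr-1 and 0.21 for alg-1. wago-1 differed by -0.27 (SE 0.054, limma adjusted p = 0.00495) with no overlap, a call that remained in all 17 settings. csr-1 differed by -0.18 (adjusted p = 0.0188). That call was lost without WLZ1 replicate 2, WLZ3 replicate 2 or WLZ3 replicate 3 (adjusted p = 0.0589, 0.0583 and 0.0529, within a range of 0.00415 to 0.0589). alg-1 differed by 0.30 (SE 0.098, limma adjusted p = 0.0336), and its call was lost in 8 of 17 settings, both scalings included, with adjusted p up to 0.271. hrde-1 did not overlap between the strains and was not called (log2 change -0.12, adjusted p = 0.0783), but it was called after scaling by median of ratios (-0.26, adjusted p = 0.00547) and without N2 replicate 1 (adjusted p = 0.0397). wago-4, rde-1, prg-1 and alg-2 had log2 differences of 0.04, -0.02, -0.01 and 0.01 (95% intervals -0.10 to 0.18, -0.12 to 0.07, -0.19 to 0.16 and -0.14 to 0.17). Each of these 4 turned sign in 1 or more settings, and rde-1 was called lower after scaling by median of ratios (-0.16, adjusted p = 0.0183). The count of called members among the 8 was 3, and it was 1 without WLZ1 replicate 2, WLZ3 replicate 2 or WLZ3 replicate 3, and 2 without WLZ1 replicate 3. Calls over all genes were 6259 in the main fit and 4965, 5354, 4350 and 5361 in these fits, in the same order.

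The other Argonautes of the worm were then examined. Of 18 further names 13 matched a gene, some names being older ones of the same gene, and 11 of these genes passed the filter. In WLZ1 against N2, 5 rose and 1 fell, with a median log2 change of 0.19. These are 45.5% and 9.09% of the 11, beside 26.6% and 41.1% of all genes. With either scaling alternative 9 rose and 0 fell. Over all genes, 53.6% of the 10905 called were higher with median-of-ratios scaling, and 56.5% of the 9331 called with quantile normalization. wago-2, a further worm-specific Argonaute, rose from 40.6 ± 1.81 to 57.2 ± 2.06 FPKM (log2 change 0.48, limma adjusted p = 2.59e-05). prg-2, a close copy of prg-1 with which it may share reads, rose from 143 ± 6.05 to 178 ± 11.1 (0.31, adjusted p = 0.000857). ppw-1 (0.28), ergo-1 (0.20) and alg-5 (0.19) rose as well. ergo-1 encodes an Argonaute of endogenous small RNAs in oocytes and embryos, and went from 78.1 ± 2.18 to 89.8 ± 2.15 FPKM (adjusted p = 0.00276). sago-1, an Argonaute that acts in somatic RNA interference, fell from 15.4 ± 0.959 to 12.5 ± 1.17 FPKM (-0.28, adjusted p = 0.0115). That call was lost after median-of-ratios scaling (-0.10, adjusted p = 0.336) and after quantile normalization, which turned its sign (0.10, adjusted p = 0.387).

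In WLZ3 against N2, wago-2 and prg-2 rose, to 56.1 ± 0.184 and 187 ± 5.99 FPKM (log2 changes 0.46 and 0.38, limma adjusted p = 0.000623 and 0.00206), and 0 of the 11 fell. The 18.2% called is below the 36.0% of all genes. Between the strains ergo-1 was lower in WLZ3, at 75.6 ± 2.91 FPKM (-0.25, adjusted p = 0.00234). ppw-2 was not called in either strain (0.18 and 0.25, adjusted p = 0.0884 and 0.0506), and neither were nrde-3, vsra-1, sago-2 and wago-11. wago-10 did not pass the filter. Its FPKM was 0.212, 0.139 and 0.0757 in the N2 libraries, 0.501, 0.595 and 0.52 in those of WLZ1, and 0.377, 0.0553 and 0.128 in those of WLZ3. As for alg-3, its WLZ3 replicate 1 was the highest of that strain. wago-5, also under the filter, had the opposite order, with 0.105, 0.217 and 0.207 FPKM in the N2 libraries, 0, 0.00728 and 0.0137 in those of WLZ1 and 0.0316, 0.0649 and 0.0787 in those of WLZ3. Summed over the members and these 13 genes, Argonaute FPKM was 1012 to 1085 in N2, 1249 to 1305 in WLZ1 and 1171 to 1188 in WLZ3. The share of wago-1 in that sum was 19.5 ± 0.514% in N2, 21.6 ± 0.925% in WLZ1 and 19.3 ± 0.367% in WLZ3. That of alg-1 was 2.62 ± 0.415%, 1.32 ± 0.105% and 1.77 ± 0.156%.

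Genes that work with the Argonautes were counted in 7 lists. Of 77 genes measured, 58 rose and 5 fell in WLZ1 against N2, with a median log2 change of 0.25, and 30 rose and 2 fell in WLZ3 against N2, with a median of 0.15. The shares called were 81.8% and 41.6%, beside 67.6% and 36.0% of all genes, so the WLZ3 share is near that of all genes. Rises made up 75.3% and 39% of the 77, beside 26.6% and 13.3% of all genes. Between the strains 4 were higher and 28 lower in WLZ3. The 41.6% called is near the 42.1% of all genes. Of the 77, 5.19% were higher and 36.4% lower, beside 29.6% and 12.6% of all genes. After median-of-ratios scaling 71 rose and 4 fell in WLZ1, and 46 rose and 0 fell in WLZ3, against N2. With that scaling 10905 of all 14862 genes were called in WLZ1, 53.6% of them higher. In WLZ3 it called 6041, of which 49.8% were higher. The pathway count in WLZ3 against N2 fell to 16 without N2 replicate 3 or WLZ3 replicate 1. It fell to 17 without N2 replicate 2 or WLZ3 replicate 2, and to 21 with a replicate block. Calls over all genes fell in the same fits, from 5354 to 3380, 3684, 3151, 3716 and 4410, in that order. Between the strains the pathway count was 18 to 21 without WLZ1 replicate 2 or any 1 WLZ3 library, and 52 with median-of-ratios scaling. Over all genes these fits called 4350 to 5354 and 7775, beside 6259 in the main fit.

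The partners of CSR-1 rose in WLZ1 in 4 of 4 cases, beside 26.6% of all genes. ego-1, the RNA-dependent RNA polymerase of this branch, rose from 17.6 ± 1.7 to 24.4 ± 1.77 FPKM (log2 change 0.46, limma adjusted p = 0.000701), and the helicase gene drh-3 from 26.5 ± 0.987 to 36.1 ± 2.23 (0.43, adjusted p = 0.000196). In WLZ3, 2 of the 4 rose, ekl-1 and drh-3 (0.24 and 0.20, adjusted p = 0.00632 and 0.0259), beside 13.3% of all genes. Of 16 genes of piRNA production and function, a list that also holds hrde-2 and prmt-5, 13 rose in WLZ1 and 10 in WLZ3, and 0 fell in either. These rises are 81.2% and 62.5% of the list, beside 26.6% and 13.3% of all genes. tofu-7 went from 25.3 ± 1.07 FPKM in N2 to 37.4 ± 1.3 in WLZ1 and 32.4 ± 1.42 in WLZ3 (adjusted p = 2.84e-05 and 0.00255). pid-1, needed for piRNA processing, rose in WLZ1 from 60.2 ± 0.93 to 81.9 ± 0.653 FPKM, and parn-1, which trims piRNA ends, rose in WLZ3 from 8.49 ± 0.685 to 10.9 ± 0.459.

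In the list of mutator focus and germ granule genes, where secondary small RNAs are made, 11 of 13 rose in WLZ1 and 6 in WLZ3, with 0 falls. These rises are 84.6% and 46.2% of the list, beside 26.6% and 13.3% of all genes. simr-1 rose from 35.4 ± 2.73 to 50.2 ± 1.02 FPKM in WLZ1 (0.49, limma adjusted p = 8.68e-05), and pid-2 from 15.4 ± 1.15 to 19.7 ± 0.873 in WLZ3 (0.34, adjusted p = 0.0121). Nuclear silencing genes rose in 8 of 10 cases in WLZ1 and 3 of 10 in WLZ3, with 0 falls. The 80% that rose in WLZ1 stands beside 26.6% of all genes. The 30% called in WLZ3 is below the 36.0% of all genes called, although 13.3% of all genes rose. The histone methyltransferase gene set-32 went from 9.27 ± 0.301 FPKM in N2 to 12.2 ± 1.56 and 11.4 ± 0.62 (adjusted p = 0.00685 and 0.0466). Among ERI genes, which feed ERGO-1 and the sperm Argonautes, 5 of 7 rose in WLZ1 and 2 in WLZ3. One of them, eri-3, went from 30.7 ± 0.909 to 38.9 ± 2.1 and 36.4 ± 1.84 FPKM. The 71.4% of ERI genes called in WLZ1 is near the 67.6% of all genes called, although 26.6% of all genes rose. The 28.6% of ERI genes called in WLZ3 is also below the 36.0% of all genes.

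Lists with somatic members were mixed in WLZ1. Of 13 genes of microRNA production and function 9 rose and 1 fell (69.2% and 7.69%, beside 26.6% and 41.1% of all genes). The one that fell was ain-1, which encodes a GW182 partner of ALG-1 and ALG-2, from 83.9 ± 9.35 to 57 ± 6.54 FPKM (log2 change -0.55, limma adjusted p = 0.000914). cgh-1, an RNA helicase abundant in oocytes, rose from 1018 ± 92.8 to 1377 ± 51.5. Of 14 genes of RNA interference by double-stranded RNA, 8 rose and 4 fell in WLZ1, and 3 rose and 2 fell in WLZ3. The 35.7% called in WLZ3 is near the 36.0% of all genes. In WLZ1 57.1% rose, beside 26.6% of all genes, and the 28.6% that fell is below the 41.1% of all genes. rde-4, the double-stranded RNA binding partner of RDE-1 and Dicer, went from 129 ± 14 FPKM in N2 to 190 ± 9.41 in WLZ1 and 167 ± 7.25 in WLZ3 (adjusted p = 0.000236 and 0.00784). The genes of RNA uptake and transport sid-5 and sid-2 fell in WLZ1, from 20.1 ± 1.19 to 12.6 ± 1.33 and from 12.6 ± 0.932 to 8.59 ± 0.356 FPKM. Quantile normalization took away the call of sid-2 (log2 change -0.01, adjusted p = 0.873). The other genes with the largest called changes of their lists in WLZ1 were pid-3 (log2 change 0.46), mut-14 (0.41), lotr-1 (0.40), vig-1 (0.33), eri-1 (0.31), cid-1 (0.30), mes-2 (0.30), met-2 (0.29) and rrf-3 (0.23), all higher. In WLZ3 they were rde-11 (0.33), lotr-1 (0.24), morc-1 (0.24), pash-1 (0.21), rrf-3 (0.20) and tsn-1 (0.17), also higher. The WLZ3 call of tsn-1 was lost with quantile normalization (log2 change 0.11, limma adjusted p = 0.124). The lists overlap in function with the germ line markers that also rose, and the part of tissue content in these counts was not tested.

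**Figure D5:**
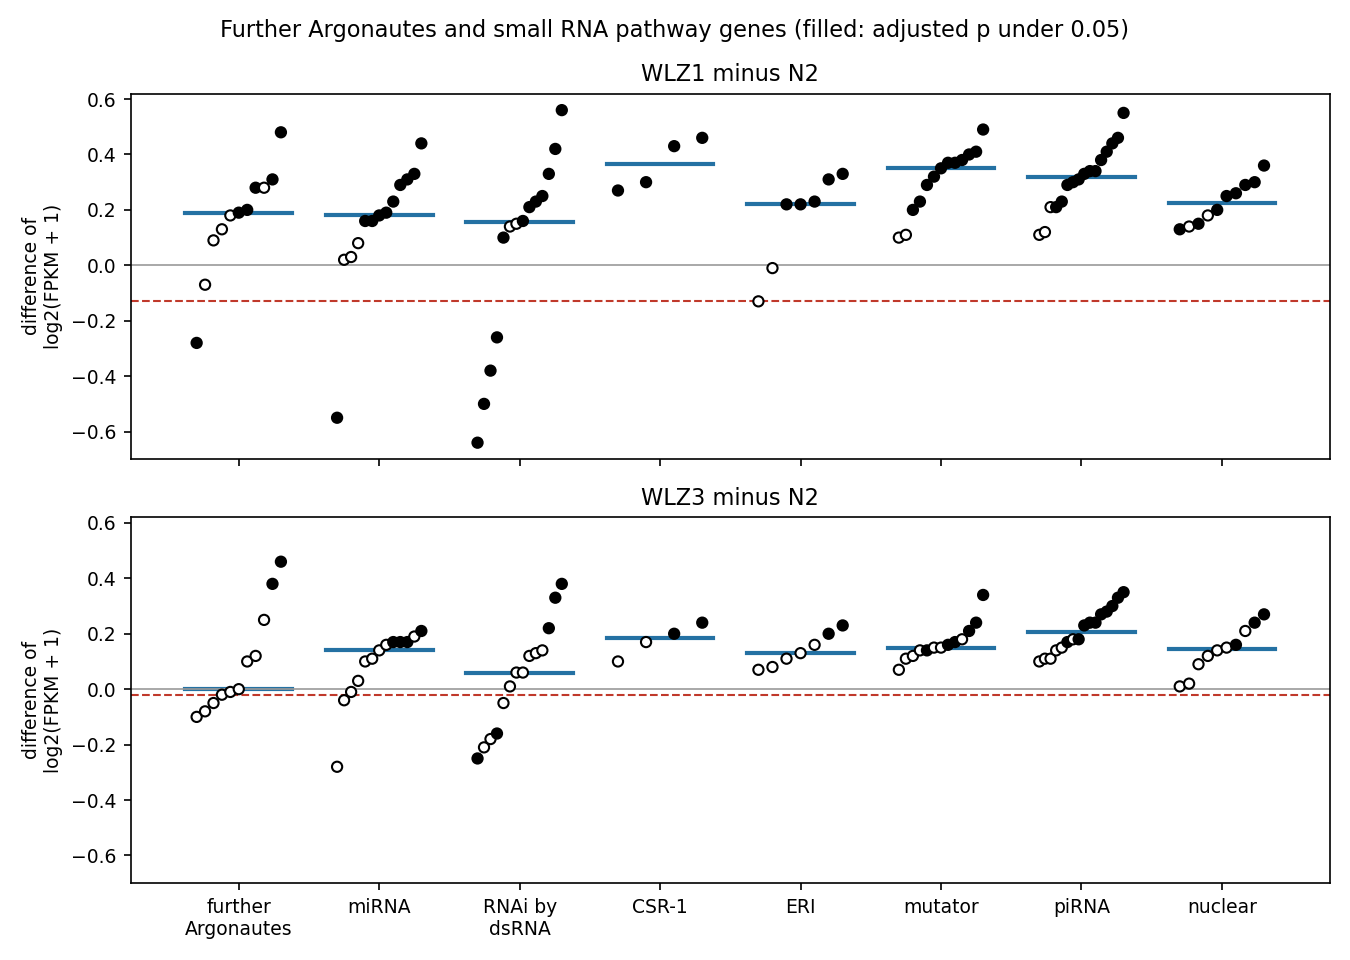
Difference of log2(FPKM + 1) against N2 for further Argonautes and 7 lists of small RNA pathway genes, with a dot for each gene (filled: adjusted p under 0.05), a blue bar at the list median and a dashed red line at the median of all genes. In WLZ1 the CSR-1, piRNA, mutator and nuclear lists lie above 0, while the miRNA and double-stranded RNA lists hold genes down to -0.55 and -0.64.

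The genes most like each member were taken by Pearson correlation of log2(FPKM + 1) over the 9 libraries, which fall into 3 strains, so a high value mainly records the same order of strains. csr-1 was closest to gls-1 and B0001.2 (r = 0.989 for each), and 249 genes had r over 0.95 with it. wago-1 was closest to asps-1 (0.995) and the nucleoporin gene npp-14 (0.994). hrde-1 was closest to the nucleoporin gene npp-7 and to fbxa-206 (0.992 each), wago-4 to tofu-1 and D1081.6 (0.981 each), and prg-1 to pigv-1 (0.979) and ruvb-1 (0.974). rde-1 was closest to bath-21 (0.990) and bra-2 (0.987). alg-1 was closest to C46C2.2 (0.990) and the calcium pump gene mca-3 (0.989), with 535 genes over 0.95. alg-2 had 1 gene over 0.95, epg-8 (0.965), followed by K10C3.4 (0.934). alg-3 was closest to the sperm gene spe-18 (0.998) and to F47D12.7 (0.997), and alg-4 to F47G6.3 and the nucleotide carrier gene ant-1.3 (0.993 each). The FPKM of spe-18 was 1.02 ± 0.429 in N2, against 8.09 ± 0.133 in WLZ1 and 2.65 ± 2.09 in WLZ3. Among the members, csr-1, wago-1 and hrde-1 had r of 0.93 to 0.96 with each other and -0.94 to -0.97 with alg-1, and alg-3 and alg-4 had 0.98.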

How the data were processed

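The authors deposited 1 table of FPKM values for 28749 genes and 9 libraries. The submitters' processing notes name featureCounts 2.0.3, HISAT2 2.2.1, fastp 0.23.2 and the build WBcel235. No source used here says how FPKM was computed, or whether counting used the strand or reads that match several genes. RefSeq names of that build matched 28744 genes and left 5. Ensembl release 115 gave exon lengths, and FPKM times length gave the library totals, with 90.72% to 91.39% of values above 0 whole within 0.01. For each member a length was sought that gave whole reads in all 9 libraries. Of low counts (2 to 20 reads) 80.63% to 85.55% were even, so a fragment was taken as 2 reads. Floors cover counting error only.

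Genes at or above 1 FPKM in 3 or more libraries (14862) were tested on log2(FPKM + 1), with 1 mean per strain, by limma 3.58.1 under R 4.3.3 with a mean-variance trend, with Benjamini-Hochberg adjustment over all of them, two-sided, at 0.05. It was tested on simulated data. The labels do not state separate cultures for the libraries of a strain, so p-values measure only the spread between libraries, which may be technical. Members and lists were chosen with earlier results of these data known. Pathway genes are named by the largest called changes in a list (3 for WLZ1, 2 for WLZ3) and 2 nearest genes per member. Data handling used Python 3.11.15, pandas 2.3.3 and numpy 2.4.6.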

Additional observations from a re-analysis of the deposited data

Results flagged for a closer look

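For csr-1, wago-1 and alg-1 the changes of the LRRK2 strains against N2 differed from each other, by limma's test of WLZ3 against WLZ1, which is the difference of the changes. The log2 difference was -0.18 for csr-1 and -0.27 for wago-1, which were higher than N2 in both strains and more so in WLZ1. It was 0.30 for alg-1, which was lower than N2 in both strains and more so in WLZ1. The call of wago-1 remained in all 17 settings, and those of csr-1 and alg-1 did not. For alg-3 and alg-4 the log2 differences were -0.80 and -0.85. These genes passed the filter only through the WLZ1 libraries, so their differences in that fit are descriptions, and with no filter limma's adjusted p was 0.0143 and 0.00375.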

How the results depend on the processing

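The members' log2 changes and the counts of called members, further Argonautes and pathway genes were recomputed in 17 settings. These were pseudocounts of 0.1 and 0.5, no filter on low genes, and only genes whose mean reached 5 FPKM (which leaves out alg-3 and alg-4). Others were median-of-ratios scaling, quantile normalization, only the groups compared, a replicate block, and 9 fits without 1 library, which kept the genes tested. Further Argonautes and pathway genes named singly were rerun with the scaling alternatives only. Counts of libraries not overlapping, germ line ratios and nearest genes were not recomputed. Of 504 recomputed changes of single members, 450 kept direction and side of the threshold, 34 lost a call, 11 gained one and 9 turned sign. The 450 hold every recomputed change of alg-3 and alg-4 (16 of 16 in each comparison), which passed the filter through WLZ1 alone. Those that turned sign were all between WLZ3 and WLZ1: prg-1 to 0.02 with quantile normalization and to 0.08 and 0.00 without WLZ1 or WLZ3 replicate 3, wago-4 to -0.09 with median-of-ratios scaling, alg-2 to -0.12 and -0.07 with median-of-ratios scaling and quantile normalization and to -0.05 and -0.03 without replicate 2 of WLZ1 or WLZ3 (up to 0.06 without others), and rde-1 to 0.00 without WLZ1 replicate 3. The cause was not tested. Called members (all 10) numbered 8 to 9 in WLZ1 against N2, 2 to 7 in WLZ3 against N2 and 3 to 6 between the strains over the fits without 1 library, counts that hold alg-3 and alg-4, which passed the filter through WLZ1 alone. Over the other 8 members these fits called 6 to 7, 2 to 7 and 1 to 4. Over all genes they called 9151 to 9937, 3151 to 5672 and 4350 to 6569. Between the strains the filter at a mean of 5 FPKM gave 3, since it tested 8 members. Further Argonautes called between the strains numbered 1, and 2 with no filter, 6 with median-of-ratios scaling, 4 with quantile normalization and 1 to 2 without 1 library. Pathway genes called in WLZ3 against N2 numbered 32, and 21 with the replicate block and 16 to 41 without 1 library. Between the strains they numbered 32, and 52 with median-of-ratios scaling and 18 to 39 without 1 library. With median-of-ratios scaling the share of higher genes among all called moved from 39.3% to 53.6% in WLZ1 against N2, from 36.9% to 49.8% in WLZ3 against N2 and from 70.2% to 45.9% between the strains. The labels state no pairing by replicate number. Deviations of same-numbered libraries correlated from -0.145 to 0.244, and those of other numbers from -0.256 to 0.173. With 3 libraries per strain, these values cannot tell whether libraries of a number shared a batch. The block took away the WLZ3 calls of wago-1 and rde-1 against N2 and that of alg-1 against WLZ1 (adjusted p = 0.0638, 0.0638 and 0.0503). Depth limits alg-3 and alg-4, with 4 to 44 reads in N2 libraries. The rescaling of alg-1 to its annotated length and the ratios of alg-3 and alg-4 without 1 library were chosen after seeing the data.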
